A study of Mus musculus with 11 samples.

Results

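Cdkn1a and 9 further genes known as transcriptional targets of p53 (Mdm2, Ccng1, Trp53inp1, Sesn1, Sesn2, Btg2, Bax, Phlda3 and Gadd45a) were followed in liver sinusoidal endothelial cells (ECs) of germ-free and conventionally raised mice. They were taken by gene symbol from the table of raw read counts, from a list drawn up with earlier results of these data known, and all 10 were found among the 29307 genes listed and among the 12905 genes that passed the filter on low counts. The series compares 6 conventionally raised (CONV-R) mice with 5 germ-free (GF) mice, 1 library each, to ask how the gut microbiota affects the transcriptome of the hepatic sinusoidal endothelium. All mice were male C57BL/6J animals of 10 to 12 weeks from the same colonies, fed the same autoclaved diet, and no allele or agent is described for either group. CONV-R mice were housed under specific-pathogen-free conditions with their own microbiota, and GF mice were held in sterile isolators. Livers were digested enzymatically, ECs were enriched on CD146 beads and sorted as CD31+, CD105+ and CD146+ cells, and cDNA was amplified from 20 ng of total RNA before sequencing. The study describes the viability of the sorted cells as low, which limits both groups as a picture of the endothelium in the intact liver. It also obtained fewer sorted ECs and less RNA from GF than from CONV-R livers, so that yield and microbial status cannot be told apart in these libraries.

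p53 is a transcription factor that is made continuously, bound by the ubiquitin ligase Mdm2 and degraded. When DNA damage or another stress releases it from Mdm2, it binds response elements built from pairs of a short palindromic motif and raises a set of genes that stop the cell cycle, repair DNA, limit growth or start apoptosis. Cdkn1a encodes p21, the cyclin-dependent kinase inhibitor through which p53 halts cells in G1, while Mdm2 itself is a p53 target that closes the feedback loop. Many of these genes also answer to other inputs, among them glucocorticoid, nutrient, hypoxia and growth factor signals, so that a change in one of them alone does not identify p53 activity.

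The bases before the transcription start are shown for the members on which the comparison turned, Cdkn1a, Sesn2 and Btg2, which were higher in GF mice, and Mdm2 and Ccng1, which did not pass the test. The sequences came from RefSeq on GRCm38.p6, where 9 of the 10 members had an entry and Trp53inp1 had none. Cdkn1a and Sesn1 had 2 annotated starts each, so that 11 windows of 250 bases were searched. Each window ends at the base before the start and is written 5′ to 3′ on the strand of the gene. Capitals mark matches, on either strand, to the p53 half-site, the CCAAT box, the GC box GGGCGG, the cAMP response element TGACGTCA or the E-box CACGTG, and overlapping matches run together.
Cdkn1a , first start, chr17:29090729-29090978, plus strand: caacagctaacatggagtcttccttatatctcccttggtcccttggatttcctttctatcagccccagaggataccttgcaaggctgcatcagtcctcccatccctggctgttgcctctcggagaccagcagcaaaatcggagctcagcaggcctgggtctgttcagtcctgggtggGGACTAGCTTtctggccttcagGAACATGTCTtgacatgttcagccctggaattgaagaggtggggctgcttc
Cdkn1a , second start, chr17:29093519-29093768, plus strand: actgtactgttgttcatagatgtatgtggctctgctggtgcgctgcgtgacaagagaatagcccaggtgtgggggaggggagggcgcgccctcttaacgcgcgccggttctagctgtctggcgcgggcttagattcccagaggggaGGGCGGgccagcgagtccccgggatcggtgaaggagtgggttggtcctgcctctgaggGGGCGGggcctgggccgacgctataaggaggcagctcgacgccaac
Sesn2, chr4:132510457-132510706, minus strand: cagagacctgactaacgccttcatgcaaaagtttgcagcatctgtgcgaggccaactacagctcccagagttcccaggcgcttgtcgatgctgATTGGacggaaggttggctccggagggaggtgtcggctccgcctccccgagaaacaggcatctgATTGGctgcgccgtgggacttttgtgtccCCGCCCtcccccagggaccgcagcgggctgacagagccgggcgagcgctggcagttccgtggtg
Btg2, chr1:134079156-134079405, minus strand: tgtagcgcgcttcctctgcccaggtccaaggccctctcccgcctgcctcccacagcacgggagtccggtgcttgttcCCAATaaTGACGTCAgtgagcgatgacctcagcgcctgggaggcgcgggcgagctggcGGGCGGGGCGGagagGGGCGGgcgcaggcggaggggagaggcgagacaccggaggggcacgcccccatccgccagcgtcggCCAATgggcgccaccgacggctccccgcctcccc
Mdm2, chr10:117710759-117711008, minus strand: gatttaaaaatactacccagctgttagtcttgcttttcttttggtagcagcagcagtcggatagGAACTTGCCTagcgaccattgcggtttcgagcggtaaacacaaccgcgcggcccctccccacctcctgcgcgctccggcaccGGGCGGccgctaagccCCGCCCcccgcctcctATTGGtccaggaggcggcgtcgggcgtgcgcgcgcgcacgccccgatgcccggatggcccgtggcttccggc
Ccng1, chr11:40755287-40755536, minus strand: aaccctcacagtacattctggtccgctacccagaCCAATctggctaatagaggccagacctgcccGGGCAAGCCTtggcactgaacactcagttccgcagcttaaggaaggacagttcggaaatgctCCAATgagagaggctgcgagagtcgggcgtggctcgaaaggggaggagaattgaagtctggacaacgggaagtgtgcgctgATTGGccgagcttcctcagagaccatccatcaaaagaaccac

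The window before the first start of Cdkn1a held 2 matches to the p53 half-site, the first of them at 73 to 64 and the other at 51 to 42 bases before the start. Mdm2 and Ccng1 held 1 match each, at 186 to 177 and at 185 to 176 bases before their starts. A match was also present before Gadd45a, Bax and the second start of Sesn1. In all, 6 of the 11 windows held a match, beside 7.13% of the 32851 windows of the RefSeq table. The windows of Btg2, Sesn2 and Phlda3 held none, nor did those of the second Cdkn1a start and the first Sesn1 start. Btg2 held the cAMP response element at 166 to 159 bases before its start, beside 1.55% of all windows. AGAACA, the core of a glucocorticoid response element, was in none of the 11 windows, beside 16.1% of all windows, and TATAAA was in none beside 12.4%. CACGTG was found before Bax only, beside 6.02% of all windows. CCAAT was found in 7 and GGGCGG in 9 of the 11 windows, beside 33.8% and 32.7% of all windows. The 11 windows had a GC content of 54% to 73.2%, beside a median of 52.4% over all windows. The shares were not adjusted for this. Of the 3 members with a window that rose in GF mice, Cdkn1a held the p53 half-site while Sesn2 and Btg2 did not, and Mdm2, Ccng1, Gadd45a, Bax and Sesn1, which held it, did not pass the test. The windows are short, and a match or its absence describes letters only.

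The libraries held 7922855 to 14669352 counts in CONV-R mice and 7242717 to 16164588 counts in GF mice (two-sided exact permutation p = 0.403). Sinusoidal endothelial markers were abundant. Stab2 stood at 7482 CPM ± 778 (SD, n = 6) in CONV-R and 7523 CPM ± 878 (SD, n = 5) in GF mice. None of 15 such markers passed the test. Their median log2 fold change of GF against CONV-R mice was 0.26, with 10 of the 15 above 0. In contrast, 8 of 12 Kupffer cell markers were higher in GF mice, none of the 12 was without counts, and their summed level ran from 111 to 288 CPM in CONV-R and from 269 to 1174 CPM in GF libraries. The highest of these sums was that of GF replicate 6, the other GF libraries reached at most 453 CPM, and without GF replicate 6 the marker C1qc did not pass the test (edgeR adjusted p = 0.0612). CONV-R replicate 3 stood apart on the second principal component, and GF replicate 2 had counts for 22674 genes against 15456 to 18495 genes in the other libraries. The Log2FC of each member and the counts of members and of other p53 targets that passed were recomputed without each library, except that Phlda3 did not enter the test without CONV-R replicate 1 or 2. In bulk RNA, a changed share of cells of 1 type and a changed amount of RNA per cell cannot be told apart.

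Of the 10 members, 4 were higher in GF mice (Cdkn1a, Sesn2, Btg2 and Trp53inp1), none was lower and 6 did not pass the test. This was 4 of 10, while 7.48% of all tested genes passed in either direction, 4.80% of them higher and 2.67% lower in GF mice (edgeR quasi-likelihood test, adjusted p under 0.05 over all tested genes). The median log2 fold change of GF against CONV-R mice (Log2FC) of the 10 members was 0.27, beside -0.01 over all tested genes. The list was drawn up with earlier results of these data known, and the study itself named Cdkn1a among genes higher in GF mice. The share that passed and the median are therefore descriptions, not tests. Cdkn1a rose 5.55-fold, Sesn2 2.12-fold, Btg2 1.53-fold and Trp53inp1 1.41-fold. The summed level of the members was 508 to 631 CPM in CONV-R libraries and 651 to 698 CPM in GF libraries, and most of that sum came from members that did not pass the test. Levels are given in CPM, counts scaled to a common library total with TMM factors.

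**Figure D1:**
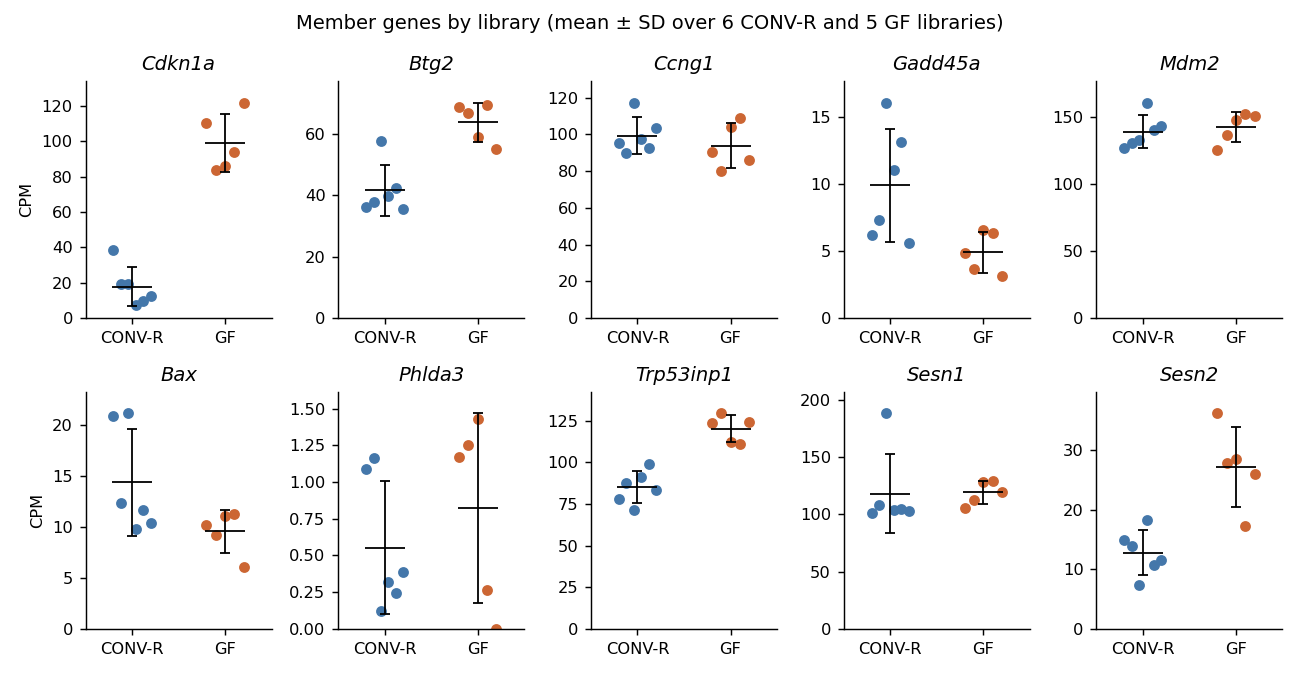
CPM of each member in every library, with points for the 6 CONV-R and 5 GF libraries and bars for mean ± SD; each panel has its own axis from 0. Cdkn1a and Trp53inp1 show no overlap between groups, while a single high CONV-R library stands out for Sesn1 (188 CPM) and Btg2 (57.8 CPM).

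Cdkn1a (ENSMUSG00000023067), on the plus strand of chromosome 17 (GRCm38, 29090976 to 29100727, 4 exon blocks), was the member with the largest difference. In CONV-R libraries it had a lowest level of 7.23, a median of 16.04 and a highest level of 38.3 CPM. In GF replicates 1, 2, 4, 5 and 6 it stood at 111, 83.8, 86.0, 93.7 and 122 CPM. Every GF library was thus above every CONV-R library, and the highest CONV-R library, replicate 1, reached less than the lowest GF library. The means were 17.9 CPM ± 11.2 (SD, n = 6) and 99.2 CPM ± 16.5 (SD, n = 5), from 1316 and 5081 counts. This gave a Log2FC of 2.47 with a 95% interval from 1.82 to 3.12 and a standard error (SE) of 0.31 (edgeR adjusted p = 0.000108). By p-value Cdkn1a ranked 40 of the 12905 tested genes. Its spread differed between the groups, with a coefficient of variation of 62.6% over CONV-R and 16.6% over GF libraries, and its highest CONV-R level was 5.30 times its lowest. Leaving out any single library gave a Log2FC between 2.31 and 2.85, and the gene passed the test each time.

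Kupffer cell markers and Cdkn1a differed between the groups in the same direction. CONV-R replicate 1, the CONV-R library with the highest marker sum (288 CPM), was also the one with the highest Cdkn1a level, and GF replicate 6, with the highest sum of all (1174 CPM), had the highest Cdkn1a level of all libraries (122 CPM). CONV-R replicate 4 had both the lowest sum (111 CPM) and the lowest Cdkn1a level (7.23 CPM). From GF replicate 4 over replicates 5 and 1 to replicate 6, the sum and the Cdkn1a level rose in the same order. Other libraries went the opposite way. CONV-R replicate 6 had a sum of 251.3 CPM and Cdkn1a at 12.8 CPM, below CONV-R replicates 2 and 3 at 19.6 and 19.3 CPM with sums of 119 and 142 CPM, and GF replicate 2 had a sum of 453 CPM and the lowest Cdkn1a level of the GF libraries. GF replicate 4 had a marker sum of 269 CPM, below that of CONV-R replicate 1, and a Cdkn1a level of 86.0 CPM against 38.3 CPM. Whether marker sum and Cdkn1a level were related over the libraries was not tested, nor was a part of Kupffer cells in the difference. When the mean log2 level of these markers entered the fit as a covariate, an alternative chosen after seeing the data, the Log2FC of Cdkn1a was 1.90 and the gene passed the test (edgeR adjusted p = 0.0185), beside 0.666% of all tested genes. The markers themselves differed between the groups, and 86 genes passed with the covariate against 965 without it. A call lost with it therefore does not show what the change depends on. Under that covariate the other 3 members were no longer past the threshold. Their Log2FC stood at 1.09 for Sesn2 (edgeR adjusted p = 0.207), 0.82 for Btg2 (edgeR adjusted p = 0.0836) and 0.50 for Trp53inp1 (edgeR adjusted p = 0.282), against 1.09, 0.62 and 0.50 without it. Exons of Cdkn1a share 273 bases with AC167363.2 on the opposite strand. The strand setting of the counting is not given in the sources used here, so reads of the 2 genes cannot be told apart there.

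Of the members that act on the cell cycle beside Cdkn1a, Btg2 rose and Ccng1 and Gadd45a did not pass the test. Btg2 (ENSMUSG00000020423, chromosome 1) encodes an antiproliferative protein that recruits the machinery removing poly(A) tails. It had a lowest level of 35.7, a median of 38.9 and a highest level of 57.8 CPM in CONV-R libraries, and 68.7, 66.8, 59.0, 69.3 and 54.9 CPM in GF replicates 1, 2, 4, 5 and 6. The groups overlapped through CONV-R replicate 3, the only CONV-R library above the lowest GF library. The Log2FC was 0.62, with a 95% interval from 0.33 to 0.91 and an SE of 0.14 (edgeR adjusted p = 0.0112). Ccng1, a cyclin that works with a phosphatase in the control of Mdm2, did not pass the test, with 99.3 CPM ± 9.99 (SD, n = 6) in CONV-R and 93.8 CPM ± 12.2 (SD, n = 5) in GF mice. Its Log2FC was -0.08 with a 95% interval from -0.32 to 0.16 (edgeR adjusted p = 0.727).

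Gadd45a, a stress sensor that binds PCNA and p21, was the member with the lowest Log2FC. Its levels were 5.59 CPM at the lowest, 9.20 at the median and 16.1 at the highest in CONV-R libraries. In GF replicates 1, 2, 4, 5 and 6 they were 4.87, 3.67, 6.57, 6.35 and 3.12 CPM. The groups overlapped, with 2 CONV-R libraries inside the GF range. The Log2FC was -1.0 with a 95% interval from -1.65 to -0.35 and did not pass the test (edgeR adjusted p = 0.0586). The call depended on the processing, since Gadd45a passed with DESeq2 (adjusted p = 0.0208), which called 5 of the 10 members beside 9.83% of its tested genes, with no filter on low counts (edgeR adjusted p = 0.0298) and with all libraries drawn down to the lowest total (edgeR adjusted p = 0.0303). It also passed without CONV-R replicate 1 (edgeR adjusted p = 0.0409) and without CONV-R replicate 6 (edgeR adjusted p = 0.0424), the pair of libraries inside the GF range. With the Kupffer cell covariate its Log2FC was -0.16 (edgeR adjusted p = 0.958). Gadd45a shares 337 exon bases with E230016M11Rik on the opposite strand, which itself had 391 counts over all libraries, and the 2 sources of reads cannot be told apart in that stretch.

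Mdm2 (ENSMUSG00000020184, chromosome 10), the ligase that removes p53 and a classical readout of its activity, differed little between the groups. It had a lowest level of 127, a median of 136 and a highest level of 160 CPM in CONV-R libraries. GF replicates 1, 2, 4, 5 and 6 had 125, 136, 147, 152 and 150 CPM. The GF range lay almost wholly within the CONV-R range. The Log2FC was 0.03 with a 95% interval from -0.18 to 0.25 (edgeR adjusted p = 0.884), so that the interval reached from 0.884-fold to 1.19-fold. Leaving out any single library kept the Log2FC of Mdm2 between 0.01 and 0.08.

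Among the apoptosis genes, Bax (ENSMUSG00000003873, chromosome 7), the BCL2 family protein that opens the outer mitochondrial membrane, did not pass the test. It had 14.4 CPM ± 5.22 (SD, n = 6) in CONV-R and 9.55 CPM ± 2.09 (SD, n = 5) in GF mice, a Log2FC of -0.58 with a 95% interval from -1.10 to -0.06 (edgeR adjusted p = 0.169). In CONV-R mice Bax split into 2 libraries at 20.9 and 21.1 CPM, replicates 1 and 3, and 4 libraries at 9.80 to 12.3 CPM. Bax shares 192 exon bases with Gm45808 on the same strand, which had no counts. Phlda3, a repressor of the kinase Akt, was rarely counted and varied widely between libraries, with 44 counts in all CONV-R and 48 counts in all GF libraries and none in GF replicate 6. Its coefficient of variation was 81.4% over CONV-R and 78.3% over GF libraries. The Log2FC was 0.58 with a 95% interval from -0.87 to 2.03 (edgeR adjusted p = 0.665), an interval that runs from 0.548-fold to 4.09-fold.

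Trp53inp1 (ENSMUSG00000028211, chromosome 4), a nuclear protein that promotes p53 phosphorylation and also takes part in autophagy, had the smallest fold of the 4 and the smallest SE. CONV-R libraries had 71.3 CPM at the lowest, 85.4 at the median and 98.9 at the highest. GF replicates 1, 2, 4, 5 and 6 had 124, 129, 112, 111 and 124 CPM. As with Cdkn1a, every GF library was above every CONV-R library, so that 2 of the 10 members showed no overlap, beside 5.59% of all tested genes without overlap and 3.22% with GF above. The Log2FC was 0.50, with a 95% interval from 0.27 to 0.72 and an SE of 0.11 (edgeR adjusted p = 0.00941).

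The sestrins restrain mTORC1 and the build-up of reactive oxygen species, and no test of the difference between them is given. Sesn2 (ENSMUSG00000028893, chromosome 4), which senses leucine and also answers to the integrated stress response, had 7.37 CPM at the lowest, 12.8 at the median and 18.3 at the highest in CONV-R libraries. In GF replicates 1, 2, 4, 5 and 6 it had 36.3, 27.9, 28.6, 17.3 and 26.0 CPM. A single pair of libraries overlapped, GF replicate 5 lying below CONV-R replicate 4. The Log2FC of Sesn2 was 1.09, with a 95% interval from 0.62 to 1.55 and an SE of 0.22 (edgeR adjusted p = 0.00588). Sesn1 did not pass the test, with 118 CPM ± 34.4 (SD, n = 6) in CONV-R and 119 CPM ± 9.91 (SD, n = 5) in GF mice and a Log2FC of 0.01 with a 95% interval from -0.31 to 0.34 (edgeR adjusted p = 0.976). CONV-R replicate 3 stood at 188 CPM while the other CONV-R libraries lay between 101 and 108 CPM, below 4 of the 5 GF libraries. Without CONV-R replicate 3 the Log2FC of Sesn1 was 0.19 and did not pass the test (edgeR adjusted p = 0.233). The paralog Sesn3 did not pass the test.

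**Figure D2:**
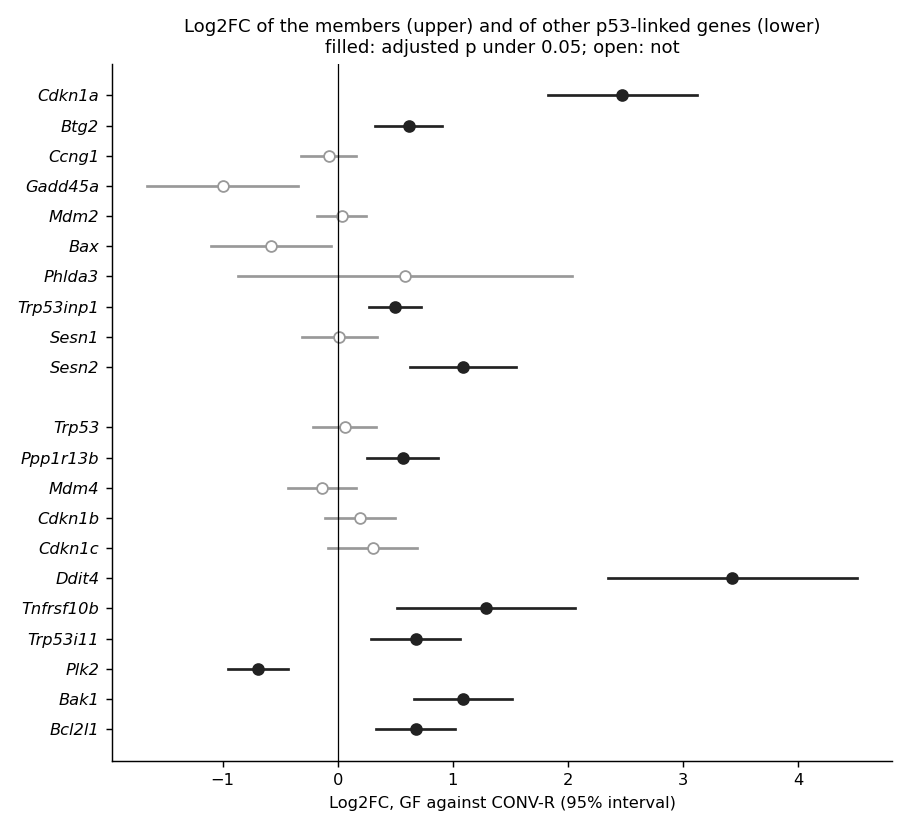
Log2FC of GF against CONV-R mice with its 95% interval for the 10 members (upper block) and 11 further genes named in the text (lower block), filled where the edgeR adjusted p is under 0.05. Cdkn1a, Btg2, Trp53inp1 and Sesn2 lie to the right of 0, while the intervals of Mdm2, Ccng1, Sesn1, Trp53 and Mdm4 include 0.

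Divided by exon length, which allows levels of different genes to be set side by side, the members changed order between the groups. In CONV-R mice the highest levels in CPM per kb of exon were those of Sesn1 (29.6 ± 8.64, SD, n = 6), Ccng1 (28.3 ± 2.85) and Mdm2 (27.3 ± 2.39), which did not differ beyond their spread. Btg2 (15.2 ± 3.02) and Trp53inp1 (13.1 ± 1.51) followed, again within their spread of each other. Bax (9.11 ± 3.31), Gadd45a (5.62 ± 2.40), Cdkn1a (5.03 ± 3.15) and Sesn2 (3.68 ± 1.09) came next with overlapping spreads between neighbours, and Phlda3 (0.355 ± 0.289) was lowest. In GF mice Cdkn1a (27.9 ± 4.64, SD, n = 5) had moved from rank 8 to rank 3, beside Sesn1 (29.9 ± 2.49), Mdm2 (28.0 ± 2.19) and Ccng1 (26.7 ± 3.48). These 4 genes were within their spread of each other. Sesn2 (7.83 ± 1.95 CPM per kb) stood above Bax (6.06 ± 1.33) and Gadd45a (2.79 ± 0.877) in GF mice, having been below both in CONV-R mice, but the spreads of Sesn2 and Bax overlapped in GF mice, as did those of Sesn2 and Gadd45a in CONV-R mice.

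**Figure D3:**
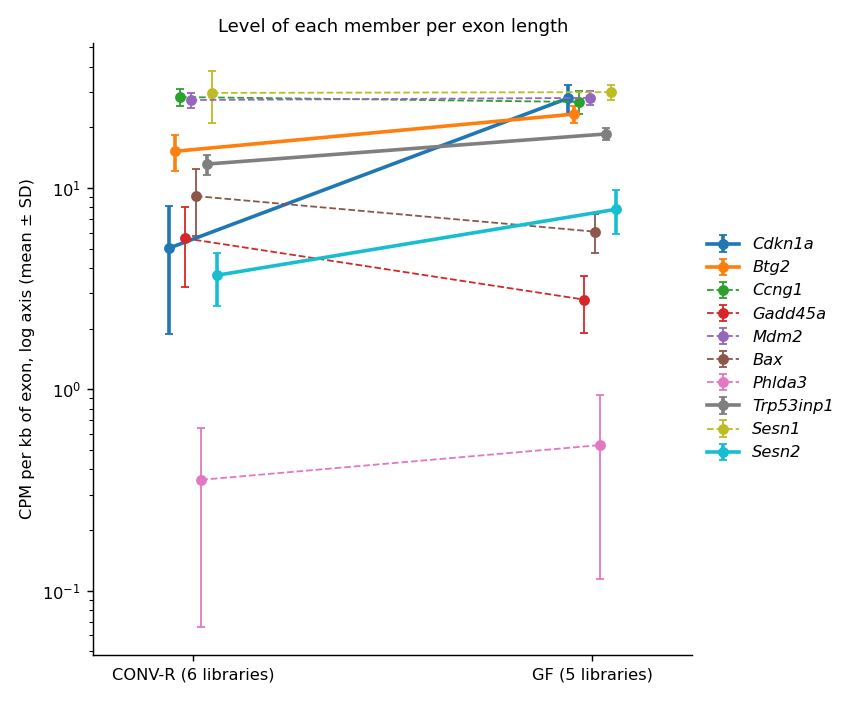
Level of each member in CPM per kb of exon on a log axis, as mean ± SD over the 6 CONV-R and 5 GF libraries, with thick solid lines for members that passed the test and thin dashed lines for the others. Cdkn1a goes from 5.03 in CONV-R to 27.9 in GF mice, the level of Mdm2, Ccng1 and Sesn1, whose lines are nearly flat.

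Ratios of 2 members within a library do not depend on library scaling. The 5 ratios shown were chosen after seeing the data, with numerators that had passed the test and denominators that had not. They are therefore a description, and no test of them is given. In CONV-R libraries there were 0.0451 to 0.302 Cdkn1a counts per Mdm2 count, and in GF libraries 0.583 to 0.881. The mean log2 ratio of Cdkn1a to Mdm2 was higher by 2.64 in GF mice and that of Trp53inp1 to Mdm2 by 0.47, and in both ratios every GF library was above every CONV-R library. Sesn2 and Btg2 relative to Mdm2 were higher by 1.07 and 0.59, and Sesn2 relative to Sesn1 by 1.06. In these 3 ratios the groups overlapped.

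**Figure D4:**
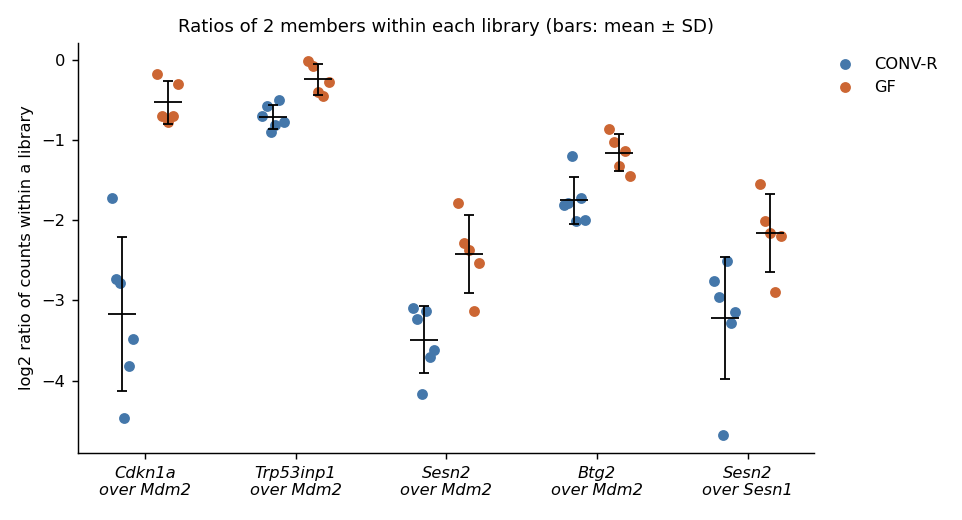
log2 ratio of the counts of 2 members within each library, for 6 CONV-R and 5 GF libraries, with bars for mean ± SD. The ratio of Cdkn1a to Mdm2 averages -3.17 in CONV-R and -0.53 in GF libraries.

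The p53 family and its regulators were compared next. Trp53, which encodes p53, had 81.8 CPM ± 9.91 (SD, n = 6) in CONV-R and 85.2 CPM ± 14.6 (SD, n = 5) in GF mice. Its Log2FC was 0.06 with a 95% interval from -0.22 to 0.33 (edgeR adjusted p = 0.836), which says nothing of the amount or activity of the protein. Trp63 and Trp73 did not pass the filter on low counts. Of 21 tested p53 regulators (kinases, ligases, acetylases and cofactors), 1 rose, none fell and 20 did not pass, beside 7.48% of all tested genes that passed. The 1 that rose was Ppp1r13b, which encodes ASPP1, a cofactor that directs p53 to apoptosis genes, from 65.4 to 96.7 CPM with a Log2FC of 0.56 (edgeR adjusted p = 0.0251). It missed the threshold without CONV-R replicate 4 or 5 and without GF replicate 1 or 2 (edgeR adjusted p from 0.0535 to 0.0648), while its Log2FC stayed between 0.48 and 0.65 without any 1 library. With the Kupffer cell covariate the Log2FC of Ppp1r13b was 0.46 and it did not pass the test (edgeR adjusted p = 0.538). Mdm4, the Mdm2 relative that masks the activation domain of p53, had a Log2FC of -0.14 (edgeR adjusted p = 0.600).

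Of 43 other tested p53 targets in 4 lists, 3 rose, 1 fell and 39 did not pass the test, so that 9.30% passed beside 7.48% of all tested genes, a share near the background. The medians of the lists were near 0, at 0.08 for 14 apoptosis genes, 0.16 for 8 cell cycle and growth genes, -0.05 for 8 DNA repair and nucleotide genes and 0.04 for 13 metabolic and other genes. Ddit4, an mTORC1 inhibitor also known as a glucocorticoid and hypoxia target, had 0.205 to 1.69 CPM in CONV-R libraries and 10.6, 2.90, 9.43, 2.91 and 9.90 CPM in GF replicates 1, 2, 4, 5 and 6. The groups did not overlap, and the Log2FC was 3.43, with an SE of 0.51 (edgeR adjusted p = 0.000586). With the authors' normalized values it was 2.08, and Ddit4 did not enter the test where at least 10 counts were required in every library. Trp53i11 rose from 248 to 395 CPM with a Log2FC of 0.68 (edgeR adjusted p = 0.0321). Tnfrsf10b, a death receptor for TRAIL, rose from 1.60 to 3.97 CPM with a Log2FC of 1.29 (edgeR adjusted p = 0.0397). Both calls lay near the threshold, although the Log2FC without 1 library stayed between 0.57 and 0.85 for Trp53i11 and between 1.04 and 1.47 for Tnfrsf10b. Trp53i11 missed the threshold in 8 of 11 fits without 1 library (CONV-R replicates 2 to 6 and GF replicates 1, 2 and 4, edgeR adjusted p from 0.0527 to 0.0872). Tnfrsf10b missed it in 9 (CONV-R replicates 1 to 4 and 6 and GF replicates 2, 4, 5 and 6, edgeR adjusted p from 0.0510 to 0.120), and also with voom and with no filter on low counts. Plk2, a kinase of the G1 phase, fell from 270 to 167 CPM with a Log2FC of -0.69 (edgeR adjusted p = 0.00253), and every GF library was below every CONV-R library, as for 2.37% of all tested genes. The classical apoptosis targets Fas, Bbc3 and Zmat3 did not pass the test, with Log2FC of 0.23, -0.65 and 0.05. None of the 8 DNA repair genes passed, among them Xpc (Log2FC -0.11) and Polk (0.04). With the Kupffer cell covariate Ddit4 was the only one of these targets past the threshold, and the Log2FC of Plk2 was -0.61 (edgeR adjusted p = 0.202).

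The genes with which p21 acts were also compared, in lists short enough that a share of 7.48%, that of all tested genes, would give few calls or none. None of 5 tested genes of CDK inhibitors other than Cdkn1a passed the test, with a Log2FC of 0.19 for Cdkn1b (p27) and 0.30 for Cdkn1c (p57). None of 14 genes of G1 cyclins, CDKs and pocket proteins passed, with Rb1 at -0.26 and Ccnd2 at -0.31 on the Log2FC scale. None of 23 S and M phase genes passed, and their median Log2FC was -0.08, with Cenpa at -0.32 and Mcm3 at 0.01. None of 11 tested paralogs of the members passed either. In the BCL2 family, to which Bax belongs, 2 of 12 tested genes rose. Bak1, which forms pores as Bax does, rose from 9.86 CPM ± 2.94 (SD, n = 6) with a Log2FC of 1.09 (edgeR adjusted p = 0.00299), and Bcl2l1, which encodes the survival protein BCL-XL, rose from 18.0 to 28.8 CPM with a Log2FC of 0.68 (edgeR adjusted p = 0.0183). Neither overlapped between the groups, and with the Kupffer cell covariate their Log2FC were 0.93 and 0.71 and did not pass the test (edgeR adjusted p = 0.204 and 0.294).

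**Figure D5:**
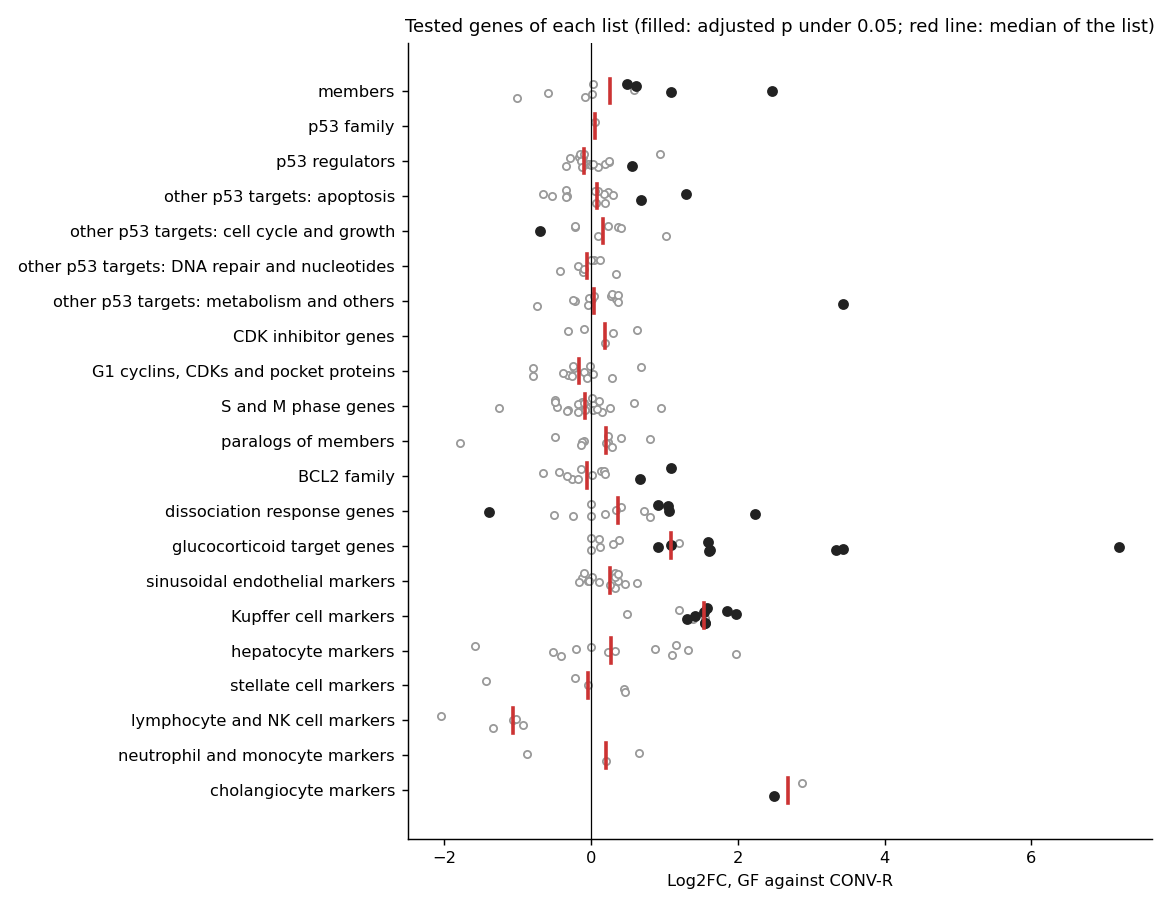
Log2FC of the tested genes of the members and of 20 other lists, 1 row each, filled where the edgeR adjusted p is under 0.05 and with a red line at the median of each list. The rows of CDK inhibitor genes, of G1 cyclins, CDKs and pocket proteins, of S and M phase genes and of DNA repair targets hold no filled point, while glucocorticoid target genes and Kupffer cell markers have medians of 1.09 and 1.54.

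Genes of 2 further response lists were also compared, beside 4.80% of all tested genes that rose and 2.67% that fell. Of 15 tested glucocorticoid target genes, 8 rose and none fell, with a median Log2FC of 1.09 beside -0.01 over all tested genes. Klf9 rose from 30.6 to 94.1 CPM, Fkbp5 from 39.8 to 121 CPM and Tsc22d3 from 49.6 to 150 CPM, and in each the groups did not overlap. Zbtb16 was at 0 to 0.233 CPM in CONV-R and at 5.81 to 47.4 CPM in GF libraries. Some genes belong to more than 1 list, among them Ddit4, which is also a p53 target, and Dusp1, which is also a dissociation response gene. Of 14 tested dissociation response genes, 4 rose (Hspa8, Hsp90aa1, Hspb1 and Dusp1) and 1 fell (Socs3), and the summed level of the list was 649 to 851 CPM in CONV-R and 943 to 1289 CPM in GF libraries. Whether either list had a part in the difference in Cdkn1a was not tested. Of the lists for other cells in the liver, none of 12 hepatocyte, 5 stellate cell, 5 lymphocyte and NK cell and 3 neutrophil and monocyte markers passed the test (median Log2FC of 0.28, -0.04, -1.06 and 0.21), and 1 of 2 cholangiocyte markers rose, Spp1, from 2.47 to 13.2 CPM. CONV-R replicate 3 held 8.47 CPM of Spp1 against 0 to 2.33 CPM in the other CONV-R libraries, and without it the Log2FC of Spp1 was 3.38 in place of 2.5.

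The 5 tested genes whose pattern over the 11 libraries was most like that of Cdkn1a were H2-Eb1, Klf15, Ifi205, Treml4 and Ednrb. Likeness was the root mean square difference of log2 CPM, each gene centred on its own CONV-R mean, and it was 0.692 for H2-Eb1 and 0.696 for Klf15 against a median of 1.93 over 12904 genes. All 5 were higher in GF mice, which the measure itself favours. H2-Eb1 went from 4.58 to 23.5 CPM, Klf15 from 1.55 to 10.1 CPM and Ednrb, an endothelin receptor, from 77.7 to 366 CPM. Without GF replicate 6, at 59.0 CPM against 13.1 to 15.2 CPM in the other GF libraries, the Log2FC of H2-Eb1 was 1.69 in place of 2.36. Treml4 did not pass the test without this library (Log2FC 1.48, edgeR adjusted p = 0.0521). H2-Eb1, Ifi205 and Treml4, which are expressed in myeloid cells, had their highest level in GF replicate 6, the library with the highest Kupffer cell marker sum. Of the other members, Sesn2 was nearest, at rank 278, followed by Btg2 at rank 789 and Trp53inp1 at rank 1188. Centred on the mean of each group instead, the nearest genes were Nuf2, Polr2f, Crip1, Ftl1 and Sh2b2.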

How the data were processed

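RNA from sorted liver sinusoidal ECs was sequenced in 11 libraries, 6 CONV-R and 5 GF, grouped by the labels. Trimmed reads were aligned to GRCm38 by STAR, and the authors deposited the raw counts per gene that featureCounts gave, leaving out 1 further GF library with few mapped reads. They also deposited log2 values normalized across libraries by the DESeq method, used here in 1 alternative. The submitters' processing notes also name Picard, bedtools and StringTie. Annotation release and strand setting are not given in the sources used here.

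Counts were tested in R 4.3.3 with edgeR 4.0.16 (filterByExpr, TMM, quasi-likelihood test, no covariate), Benjamini-Hochberg adjustment over 12905 genes and a threshold of 0.05. Log2FC is GF against CONV-R, intervals are 95% intervals of that fit, and the standard error is the Log2FC over the root of F. CPM are counts on TMM-scaled totals, and log2 CPM used a prior count of 2. Depth was 7242717 to 16164588 counts, so that precision rests on 5 or 6 mice and, for rare genes, on counting error. Whether same-group mice shared a cage or litter is not given, and p-values measure the spread between these libraries. Tested on simulated data, edgeR recovered 60% of genes changed 2-fold (100 tested) and 91.8% of those changed 4-fold (97 tested) in 12742 genes, with 3.87% of its calls false, against 13.0% for DESeq2 in 12905 genes. The simulated counts were drawn once, with the dispersions that edgeR had estimated and no outlying library. The rates hold for that setting only. Exact permutation tests used scipy 1.17.1. Exon lengths came from GENCODE M21, to which 29081 genes matched by identifier.

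The alternatives were DESeq2 1.42.0, its size factors, voom of limma 3.58.1, the authors' normalized values, no filter, at least 10 counts in every library, a robust fit, counts drawn down to the lowest total, a replicate block and each library left out. A Kupffer cell covariate and within-library ratios were added after seeing the data. The members and the 20 other lists were chosen with earlier results of these data known. Of 272 list genes, 265 had a row, and 3978 genes had no counts in any library. Named were all members, Trp53, Mdm4, Cdkn1b, of each other list the called genes, at most the 4 with the smallest adjusted p, or, where none passed, the 2 with most counts, and the 5 genes nearest Cdkn1a when centred on CONV-R means and when centred on group means. Fas, Bbc3, Zmat3, Sesn3, Trp73, Tap1 and Socs3 fall outside this rule and were named after their values were seen. Plots were drawn with matplotlib 3.10.9.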

Additional observations from a re-analysis of the deposited data

Results flagged for a closer look

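In 13 of the 114 groups examined, over 57 named genes, 1 library lay far from the others of its group by Dixon's criterion. For independent, normally distributed values chance alone gives about 1 in 20. CPM of rare genes need not be so distributed and the groups share libraries, so these 13 groups are a description only. CONV-R replicate 3 was the highest library of its group in 6 of them, with Sesn1 at 188 CPM, Btg2 at 57.8 CPM, Plk2 at 334 CPM, Ccnd2 at 462 CPM, Ccr2 at 6.02 CPM and Spp1 at 8.47 CPM. GF replicate 6 was the highest in 4, with Csf1r at 151 CPM, C1qb at 72.8 CPM, C1qc at 43.0 CPM and H2-Eb1 at 59.0 CPM. Trp53i11 stood at 386 CPM in CONV-R replicate 1, Ddit4 at 1.69 CPM in CONV-R replicate 4 and Trp63 at 1.55 CPM in GF replicate 2. Cdkn1a was not among them in either group. Without CONV-R replicate 3, Btg2 had a Log2FC of 0.73 in place of 0.62 and passed the test.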

How the results depend on the processing

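Cdkn1a, Trp53inp1, Sesn2 and Btg2 rose and passed the test with each of 9 other settings and without each single library. Cdkn1a had a Log2FC of 2.18 to 2.70 over those settings and of 2.31 to 2.85 without 1 library. Without 1 library, 4 to 5 members, 2 to 3 other p53 targets and 622 to 1260 of all tested genes passed (625 without CONV-R replicate 4 and 622 without GF replicate 6, against 965). The other p53 targets numbered 2 without CONV-R replicate 2, 4 or 6 and without GF replicate 2 or 4. DESeq2 called 1527 genes. With the Kupffer cell covariate, added after seeing the data, 86 genes, 1 member (Cdkn1a) and 1 other p53 target (Ddit4) passed; the cause was not tested. Values near 0 that had not passed the test changed sign under some settings, and none passed after the change. These were Mdm2 with counts drawn down (-0.00065), Sesn1 (-0.0033), Mcm3 (-0.0082), Stab2 (-0.016) and Cyp2e1 (-0.011) with no filter, Mcm3 (-0.0096) and Cyp2e1 (-0.12) with counts drawn down, and Cyp2e1 with DESeq2 (-0.044), voom (-0.59) and the authors' normalized values (-0.38). With the covariate they were Ccng1 (0.036), Trp53 (-0.017) and Mcm3 (-0.076). Without 1 library, Sesn1 ran from -0.029 to 0.19, Trp53 from -0.0059 to 0.13, Polk from -0.018 to 0.082, Mcm3 from -0.085 to 0.090, Stab2 from -0.054 to 0.057, Cyp2e1 from -1.35 to 0.35, Ecm1 from -0.19 to 0.058 and Plac8 from -0.14 to 0.46.

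In the labels, numbers 1, 2, 4, 5 and 6 occur in both groups. Deviations of same-numbered libraries from their group means had correlations of 0.20, 0.05, -0.01, 0.02 and 0.09. Only number 1 correlated best with its own. Whether libraries of the same number were handled together is not given in the sources used here. With a replicate block over these 5 numbers, a fit that also leaves out CONV-R replicate 3, 1101 genes passed, with the same 4 members and 4 other p53 targets (Ddit4, Plk2, Trp53i11 and Tap1). Without CONV-R replicate 3 and with no block 931 genes passed, Tap1 among them. Tnfrsf10b did not pass with the block (edgeR adjusted p = 0.106), with voom (0.0822) or with no filter (0.0744). Under the block the Log2FC of Stab2 was -0.039 and of Cyp2e1 -0.59. Phlda3 had 44 and 48 counts and varied widely between libraries, and the parts of depth and of spread between mice were not tested.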
